A study of Homo sapiens with 8 samples.

Results

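Heat shock proteins and cytosolic chaperones were followed in single cells of MDA-MB-231, a line derived from a human breast cancer without hormone receptors or HER2 amplification. The group held 63 of the 15041 protein-coding genes listed in the deposited tables. Its members were chosen by symbol: the HSPA, HSPB, HSP90A, DNAJA, DNAJB, DNAJC and CCT families, with TCP1, HSPD1, HSPE1, HSPH1 and the transcription factor HSF1. The endoplasmic reticulum chaperones HSPA5, DNAJB9, DNAJB11 and DNAJC3 and the co-chaperone HSPBP1 were left out. HSPA1A, HSPA1B, DNAJA3 and DNAJA4 were not analysed here.

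The 4 groups had 2 libraries each: ATM knockdown cells irradiated with 5 Gy and collected 4 h later, untreated ATM knockdown cells, irradiated WT cells and untreated WT cells. ATM is the kinase that signals DNA double-strand breaks. The labels give neither the knockdown reagent nor the number of clones, and whether libraries of 1 group are separate cultures is not stated, so p-values measure the spread between libraries, which may be technical. The sample titles carry 1 suffix for every WT library and another for every knockdown library, and its meaning is not given in the sources used here. Genotype and any difference between the knockdown and WT lines in passage, clone or handling, or in what that suffix stands for, cannot be told apart.

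Of 378 single cells, 363 passed the minimum of 1000 detected genes and 5000 counts, and the 15 left out were all knockdown cells. Counts summed over the kept cells of a library ranged from 9321268 to 24256471, lowest in irradiated WT replicate 1. Between 39.3% and 54.9% of the counts in a library came from its 10 deepest cells. No 2 cells had identical counts. The mesenchymal markers of the line were present in every library (VIM at 1828 to 2944 CPM, counts scaled to the library total), whereas PGR and CDH1 stayed at or below 2.02 CPM and the leukocyte marker PTPRC at or below 1.80 CPM. EPCAM, at 15.5 to 61.3 CPM, and GATA3, at 35.7 to 54.8 CPM, were above that level. ATM itself had 13.0 and 14.03 CPM in irradiated knockdown libraries and 13.8 and 33.0 CPM in untreated knockdown libraries, against 28.0 and 33.2 CPM in irradiated WT and 57.9 and 31.1 CPM in untreated WT libraries. The untreated knockdown replicate 2 overlapped the WT libraries, and ATM passed the test in neither treatment (log2 difference -1.25 ± 0.42, edgeR adjusted p = 0.109, irradiated; -0.98 ± 0.41, adjusted p = 0.157, untreated; SE).

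Molecular chaperones bind unfolded or partly folded proteins and help them fold, assemble or be degraded. HSP70 proteins take up clients from J-domain (DNAJ) co-chaperones in an ATP-driven cycle, HSP110 proteins exchange their nucleotide, HSP90 acts late on kinases and steroid receptors, and the ring-shaped CCT/TRiC chaperonin folds actin and tubulin. HSF1 switches on the inducible members under proteotoxic stress, by binding inverted repeats of a short unit in their promoters, the heat shock element.

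Promoters are shown for 3 textbook heat shock genes that, as given below, differed between knockdown and WT cells. HSPA8 and DNAJA1 carry the element at full length and differ from WT in opposite directions, and HSPH1 is the member with an irradiation call. Windows run from 250 bases before to 50 after the RefSeq gene start in GRCh38.p14: chr11:123062087-123062386 on the minus strand for HSPA8, chr9:33025023-33025322 on the plus strand for DNAJA1 and chr13:31162339-31162638 on the minus strand for HSPH1. Capitals mark heat shock elements of 2 or 3 units.
HSPA8: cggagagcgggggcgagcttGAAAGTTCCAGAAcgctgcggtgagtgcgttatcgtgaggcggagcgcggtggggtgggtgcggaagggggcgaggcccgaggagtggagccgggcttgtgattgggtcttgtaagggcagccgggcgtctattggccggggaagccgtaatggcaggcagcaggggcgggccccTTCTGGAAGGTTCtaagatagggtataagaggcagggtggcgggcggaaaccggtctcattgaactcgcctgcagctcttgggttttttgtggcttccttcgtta
DNAJA1: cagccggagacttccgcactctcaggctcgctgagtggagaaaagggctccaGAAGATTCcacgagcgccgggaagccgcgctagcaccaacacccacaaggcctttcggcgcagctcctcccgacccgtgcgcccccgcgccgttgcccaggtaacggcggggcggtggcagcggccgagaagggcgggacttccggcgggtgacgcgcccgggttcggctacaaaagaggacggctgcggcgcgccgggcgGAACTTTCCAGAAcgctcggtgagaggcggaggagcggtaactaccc
HSPH1: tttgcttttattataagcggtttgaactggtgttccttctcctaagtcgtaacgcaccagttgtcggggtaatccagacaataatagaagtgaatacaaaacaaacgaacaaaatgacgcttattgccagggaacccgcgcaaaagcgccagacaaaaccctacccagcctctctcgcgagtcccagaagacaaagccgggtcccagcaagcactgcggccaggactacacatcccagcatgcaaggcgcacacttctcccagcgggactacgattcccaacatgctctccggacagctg
The 3-unit element, searched as GAANNTTCNNGAA or TTCNNGAANNTTC, occurred in 4 of the 55 members with a promoter sequence (7.27%), namely DNAJA1, DNAJB6, HSPA6 and HSPA8, against 0.490% of all 35116 promoters. HSPA8 held 2 such runs and DNAJA1 held 1. The 2-unit form, GAANNTTC or TTCNNGAA, which every 3-unit match contains, occurred in 11 members (20%), against 13.5% of all promoters, and a GC box, GGGCGG on either strand, in 76.4% of members against 45.0%. Neither element form was in the HSPH1 window. A match is a description of these letters, and a gene can have other starts than the one used. Members were taken with 1 promoter per symbol. The 35116 promoters were reduced neither by symbol nor to protein-coding genes, so the compared sets may be unlike.

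The members together took 1.37% and 1.28% of all counts in irradiated knockdown libraries and 1.13% and 1.12% in untreated knockdown libraries. Their share was 1.07% and 1.04% in irradiated WT libraries and 1.05% and 0.978% in untreated WT libraries. All 4 knockdown libraries lay above all 4 WT libraries. HSPA8 made up part of this gap: without it the share was 1.14% and 1.06% in irradiated knockdown libraries and 0.980% and 0.978% in untreated knockdown libraries. Without HSPA8 it was 0.990% and 0.965% in irradiated WT and 0.959% and 0.910% in untreated WT libraries. The untreated knockdown libraries then lay inside the range of all 4 WT libraries, but above both untreated WT libraries. The irradiated knockdown libraries remained above every WT library.

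Of the 63 members, 59 passed the filter on low counts and were tested among 12456 genes. The 4 that did not were HSPA6, HSPA12B, HSPB9 and DNAJC12. HSPA6, the strictly heat-inducible HSP70 gene, singled out after its values were seen, had counts in 2 libraries: 8 in irradiated knockdown replicate 1 and 31 in untreated WT replicate 2. In irradiated knockdown replicate 1 the counts came from 1 cell.

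The first comparison asked which members responded within 4 h of irradiation. In WT cells 1 of 59 members changed (1.69%), a share near the 1.65% of all genes tested. In knockdown cells edgeR called 0 of 59 members, against 0.225% of all genes. There, 9 of 59 members had an unadjusted p under 0.05, against 1104 of 12456 genes, and DESeq2's Wald test and limma on mean CPM per cell each called 1, HSPA8. The median log2 change of the members was 0.04 in WT and 0.15 in knockdown cells, beside -0.01 and 0.01 over all genes tested. The average over both genotypes called 1 member, against 1.49% of all genes. These counts moved by 1 or 2 calls when single libraries were left out: 2 in WT cells without untreated WT replicate 1, and in knockdown cells 2 without that library and 1 without untreated knockdown replicate 1, untreated WT replicate 2 or either irradiated WT library. The average called 2 without untreated replicate 1 of either genotype and 0 when any single irradiated library was left out.

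The member that changed in WT cells was HSPH1, an HSP110 nucleotide exchange factor for HSP70. It had 197 and 189 CPM in irradiated knockdown libraries and 138 and 194 CPM in untreated knockdown libraries, against 198 and 185 CPM in irradiated WT and 457 and 455 CPM in untreated WT libraries. Only the untreated WT libraries stood apart in these summed counts. The other 6, at 138 to 198 CPM, overlapped between treatments and genotypes. HSPH1 fell in irradiated WT cells to 0.420 times its untreated level (log2 change -1.25 ± 0.18 SE, edgeR quasi-likelihood test, adjusted p = 0.00314). In knockdown cells the log2 change was 0.22 ± 0.17 (adjusted p = 0.765). The irradiation effects differed between genotypes by 1.47 ± 0.25 on the log2 scale (edgeR adjusted p = 0.0336), and HSPH1 was the only one of 59 members called in that comparison, against 0.185% of all genes (3 were called without untreated WT replicate 2).

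HSPH1 was also lower in untreated knockdown than in untreated WT cells (log2 difference -1.46 ± 0.18, edgeR adjusted p = 0.000124), and close to equal between genotypes after irradiation (0.01 ± 0.17, adjusted p = 0.991). The fall in irradiated WT cells, the difference between the irradiation effects and the untreated genotype difference all rest on the same untreated WT libraries. Each of these 3 calls held without any one library and under every other alternative tried. The average of the irradiation effect over both genotypes was -0.52 ± 0.12 on the log2 scale (edgeR adjusted p = 0.0497) and lost its call when any 1 of 5 libraries was left out (adjusted p = 0.0505 to 0.134): both irradiated libraries of each genotype, and the second untreated one of the knockdown. It was also lost on counts thinned to equal depth per cell (0.0720) and with limma on mean CPM per cell (0.0849).

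Single cells at equal depth also had the highest HSPH1 levels in the untreated WT libraries. When each cell was thinned to 69000 counts, which 330 cells reached, the median HSPH1 level per cell was 232 and 188 CPM in irradiated knockdown and 116 and 152 CPM in untreated knockdown libraries. It was 101 and 152 CPM in irradiated WT and 304 and 297 CPM in untreated WT libraries. By these medians both irradiated knockdown libraries lay above the untreated knockdown and the irradiated WT libraries. In the summed counts those groups overlapped. The upper end of the distribution moved too: the 90th percentile was 357 and 348 CPM in irradiated WT cells, against 832 and 797 CPM in untreated WT cells. At this depth 91.3% and 92.3% of irradiated WT cells and 97.7% and 97.8% of untreated WT cells had an HSPH1 count; before thinning it was 95.8% in both irradiated WT libraries and 100% in both untreated ones. No single cell held more than 18.2% of a library's HSPH1 counts.

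**Figure D1:**
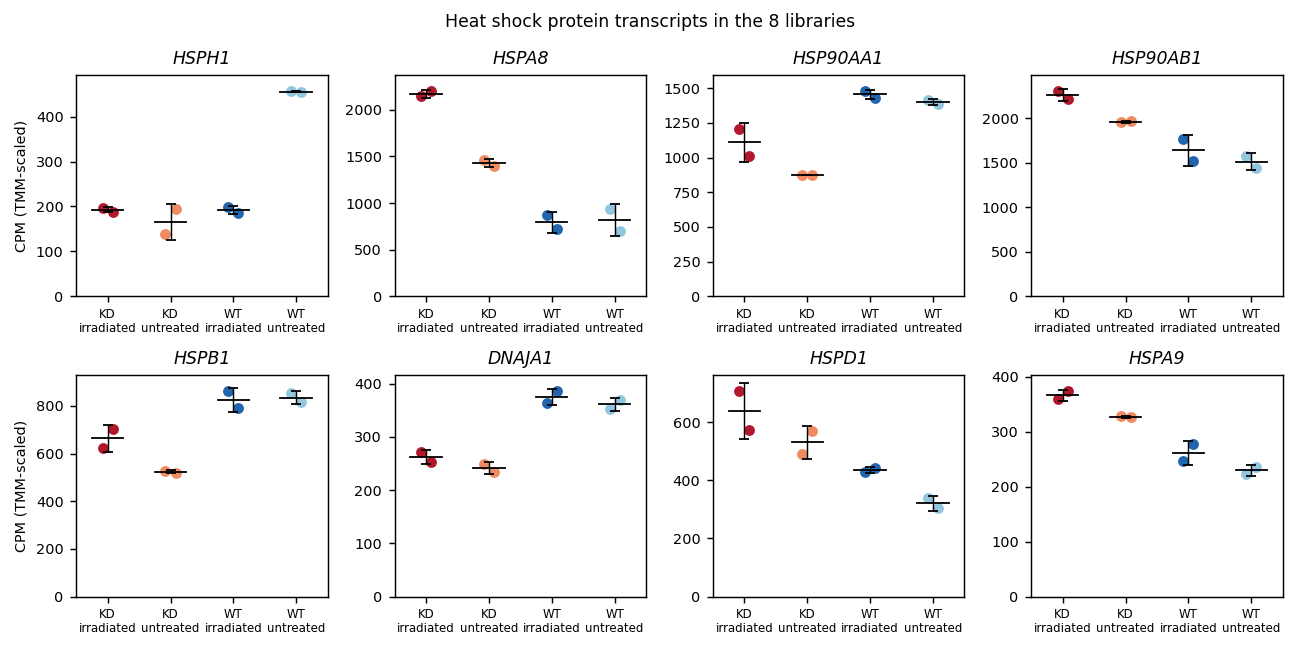
CPM (TMM-scaled, vertical axis) of 8 heat shock protein genes in the 4 groups; each point is 1 library, and lines with bars show the mean ± SD of 2 libraries. HSPH1 stands at 457 and 455 CPM in untreated WT libraries and at or below 198 CPM in the other 6, and HSPA8 is at or above 1398 CPM in all 4 knockdown libraries and at or below 938 CPM in all 4 WT libraries.

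HSPA8, the constitutive HSP70 of the cytosol, was higher in knockdown than in WT cells in both treatments. It had 2144 and 2203 CPM in irradiated knockdown and 1458 and 1398 CPM in untreated knockdown libraries, against 876 and 717 CPM in irradiated WT and 938 and 700.2 CPM in untreated WT libraries. Every knockdown library was above every WT library, and irradiated and untreated libraries separated in knockdown cells and overlapped in WT cells. HSPA8 was higher in knockdown cells by 1.45 ± 0.14 on the log2 scale after irradiation (edgeR adjusted p = 3.41e-05) and by 0.80 ± 0.14 without it (adjusted p = 0.00227), and both calls held under every alternative.

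Within knockdown cells the log2 irradiation change of HSPA8 was 0.61 ± 0.14, 1.52-fold, and did not pass the test (edgeR adjusted p = 0.117). It passed under 10 of 19 alternative settings, with adjusted p between 0.00130 and 0.234 over all of them, and among these were the fits without any one of the 4 WT libraries (0.00424 to 0.0331). In WT cells the change was -0.04 ± 0.14 (adjusted p = 0.947). The difference between these effects was 0.65 ± 0.20 (adjusted p = 0.293), and it passed only without untreated WT replicate 2 (0.0218), among adjusted p-values of 0.0218 to 0.517. At equal depth the median cell had 2348 and 1971 CPM of HSPA8 in irradiated knockdown and 1362 and 1304 CPM in untreated knockdown libraries, against 725 and 580 CPM in irradiated WT and 812 and 623 CPM in untreated WT libraries. The 10th percentile of irradiated knockdown cells, 1403 and 1187 CPM, lay near the 90th percentile of WT cells, 1203 to 1348 CPM. HSPA8 has 17 named pseudogenes and hosts small nucleolar RNA genes in its introns, and how reads shared with these were counted is not given in the sources used here.

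**Figure D2:**
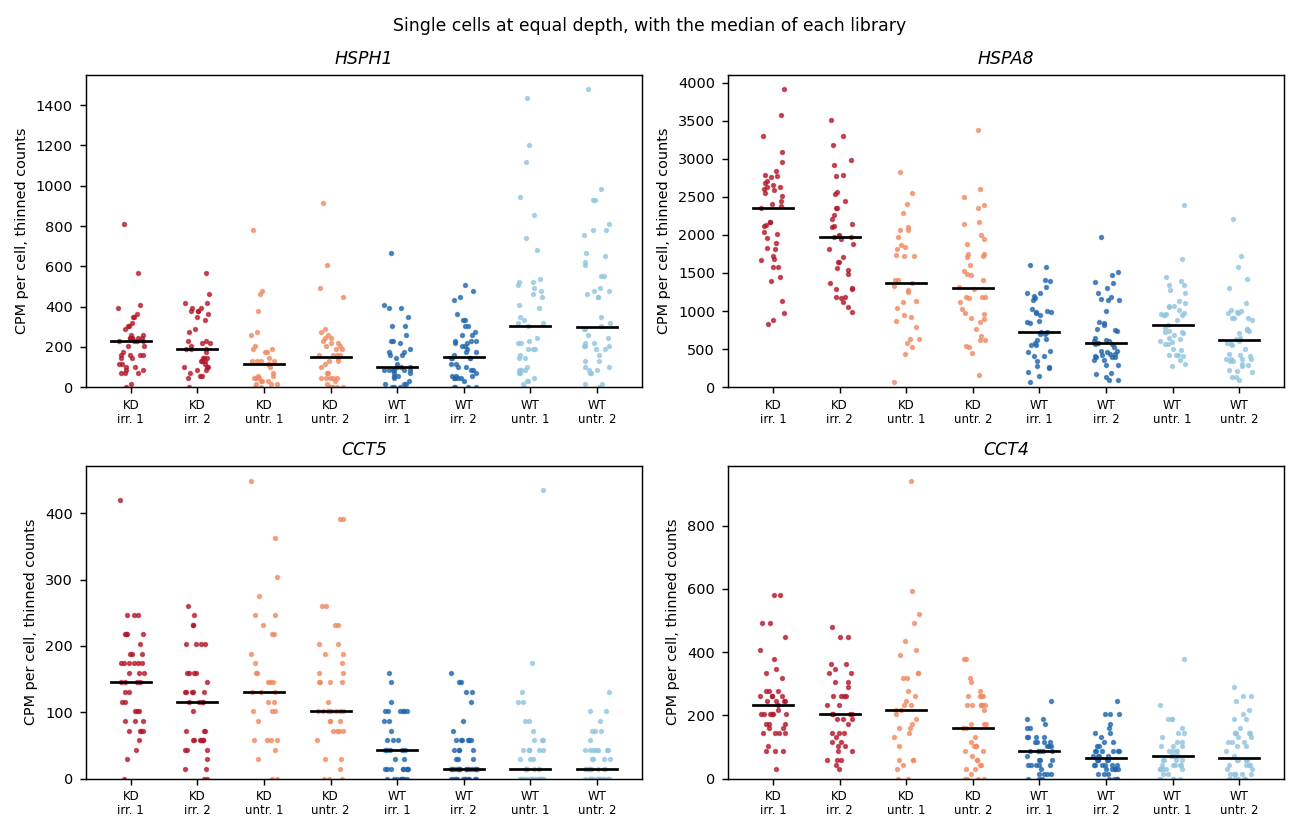
Single cells of the 8 libraries, each thinned to 69000 counts, for HSPH1, HSPA8, CCT5 and CCT4 (vertical axis, CPM per cell; each point is 1 cell, the bar is the library's median). The HSPH1 medians are highest in the untreated WT libraries, at 304 and 297 CPM, and the HSPA8 medians run from 1304 to 2348 CPM in knockdown and from 580 to 812 CPM in WT libraries.

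The genotypes differed in more members than the treatments did. Of 59 members, 16 differed between untreated knockdown and untreated WT cells (27.1%, against 9.94% of all genes tested): 10 were higher, against 4.83% of all genes, and 6 lower, against 5.11%. After irradiation 7 differed (11.9%, against 5.1% of all genes), and all 7 were higher, against 2.18% of all genes. The excess was smaller beside genes of like level. Among members averaging at least 5 on the log2 CPM scale, 13 of 38 differed untreated (34.2%, against 17.8% of all genes at that level). After irradiation 5 of these 38 differed (13.2%, against 10.1% of all genes at that level). The median log2 difference of the members was 0.04 untreated and 0.01 irradiated, beside -0.01 and -0.000298 over all genes. In 15 members all 4 knockdown libraries were above all 4 WT libraries (25.4%, against 8.61% of all genes), and in 7 they were all below (11.9%, against 8.86%). These counts describe the list and are not a test of it. The count without irradiation was 8 without untreated knockdown replicate 1 and 9 without untreated WT replicate 2, and the count after irradiation was 3 without irradiated WT replicate 2 and 4 without irradiated knockdown replicate 2. It was 11 to 13 without untreated knockdown replicate 2 or either untreated WT library. Over all fits with 1 library left out, the share of all genes called was 7.34% to 10.5% without irradiation and 2.33% to 7.46% after it. When only the untreated libraries were fitted, 9 of the 16 untreated calls were lost (CCT3, TCP1, HSP90AB1, HSPB8, DNAJA1, DNAJC2, DNAJC6, DNAJC18 and HSPA9; edgeR adjusted p = 0.0514 to 0.0902), and 6.1% of all genes were called.

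In the CCT/TRiC chaperonin all 9 tested members, the 8 ring subunits and the testis-type paralog CCT6B, had a positive log2 difference in both treatments, with a median of 0.32 irradiated and 0.44 untreated. Of these, 2 rose in irradiated knockdown cells (CCT4 and CCT5) and 4 in untreated knockdown cells (TCP1, CCT3, CCT4 and CCT5), against 2.18% and 4.83% of all genes. Each ring subunit is known to occur in equal number in the assembled chaperonin; the fitted transcript differences of the 8 ran from 0.07 to 1.39 irradiated and from 0.04 to 2.09 untreated.

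CCT5, the epsilon subunit, had the largest log2 difference of the 8 ring subunits in both treatments. It had 143 and 116 CPM in irradiated knockdown and 168 and 144 CPM in untreated knockdown libraries, against 58.0 and 41.1 CPM in irradiated WT and 42.3 and 30.7 CPM in untreated WT libraries. The genotypes did not overlap. Irradiated libraries lay below untreated ones in knockdown cells, without overlap but by a small margin, and the treatments overlapped in WT cells. The irradiation effects differed between genotypes by -0.70 on the log2 scale, with no call. CCT5 was 4.26-fold higher in untreated knockdown cells (log2 difference 2.09 ± 0.25, edgeR adjusted p = 0.000103) and 2.62-fold higher in irradiated knockdown cells (1.39 ± 0.24, adjusted p = 0.00368). At equal depth 97.7% and 95.0% of irradiated knockdown cells and 93.9% and 92.5% of untreated knockdown cells had a CCT5 count, against 76.9% and 76.1% of irradiated WT cells and 62.8% and 63.0% of untreated WT cells. Before thinning the share was 97.7% and 100% in irradiated knockdown and 82.9% and 90.9% in untreated knockdown libraries, against 87.5% and 93.8% in irradiated WT and 77.1% and 79.2% in untreated WT libraries.

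CCT4, the delta subunit, had 225 and 207 CPM in irradiated knockdown and 263 and 171 CPM in untreated knockdown libraries, against 101 and 99.8 CPM in irradiated WT and 88.2 and 98.8 CPM in untreated WT libraries. Again the genotypes did not overlap, with the widest spread in untreated knockdown cells. CCT4 was 2.15-fold higher after irradiation (log2 difference 1.10 ± 0.21, edgeR adjusted p = 0.00561) and 2.32-fold higher without it (1.21 ± 0.21, adjusted p = 0.00160). Both subunits kept both calls under every alternative. CCT4 overlaps COMMD1 on the other strand, and CCT5 overlaps an annotated transcript on the other strand; whether counting used strand is not given in the sources used here.

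TCP1, the alpha subunit, had 220.2 and 199.7 CPM in irradiated knockdown and 178 and 189 CPM in untreated knockdown libraries, against 163 and 137 CPM in irradiated WT and 126 and 115 CPM in untreated WT libraries. CCT3, the gamma subunit, had 378 and 354 CPM in irradiated knockdown and 361 and 316 CPM in untreated knockdown libraries, against 311 and 290.4 CPM in irradiated WT and 241 and 229 CPM in untreated WT libraries. In both genes all knockdown libraries were above all WT libraries. Untreated, TCP1 rose by 0.60 ± 0.17 (edgeR adjusted p = 0.0375) and CCT3 by 0.53 ± 0.15 (0.0328) on the log2 scale in knockdown cells. Both calls depended on single libraries: the adjusted p of CCT3 was 0.0622 to 0.196 without either untreated WT library or untreated knockdown replicate 1, and that of TCP1 was 0.0554 to 0.158 without any 1 library other than the irradiated WT ones. On thinned counts both untreated calls were lost (0.117 for CCT3 and 0.0524 for TCP1), and CCT3 also without the deepest cells, those above 2 times the library's median (0.102). Between irradiated genotypes TCP1 had no call in the fit of all 4 groups. There it passed on thinned counts (0.71 ± 0.18, edgeR adjusted p = 0.0164) and with limma on mean CPM per cell (0.65 ± 0.17, adjusted p = 0.0330). The remaining ring subunits, CCT2, CCT6A, CCT7 and CCT8, had log2 differences of 0.04 to 0.44 untreated and 0.07 to 0.32 irradiated, with no call. The largest of these, CCT6A untreated (0.44 ± 0.15, edgeR adjusted p = 0.0789), passed under 6 of 19 alternatives (0.00930 to 0.0468).

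Irradiation left the chaperonin without a call. In WT cells 8 of 9 members had a positive log2 change, with a median of 0.32. The largest among the 8 ring subunits was CCT6A, the zeta subunit, with 437 and 459 CPM in irradiated WT against 332 and 291 CPM in untreated WT libraries; these did not overlap (0.52 ± 0.15, edgeR adjusted p = 0.102). CCT6A passed with no filter on low counts (0.0413), with DESeq2's Wald test (0.0233) and with limma (0.0272). In knockdown cells 7 of 9 members had a positive change, with a median of 0.20, and CCT6A had 526 and 485 CPM in irradiated against 471 and 375 CPM in untreated libraries (0.26 ± 0.15, adjusted p = 0.647). In WT cells S phase genes moved with irradiation as well: 20 of 20 listed S phase genes had a positive change and 11 passed (55%, against 1.65% of all genes), and their summed level was 2405 and 3781 CPM in irradiated WT against 1474 and 1475 CPM in untreated WT libraries. The part of cell cycle position in the chaperone values was not tested.

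**Figure D3:**
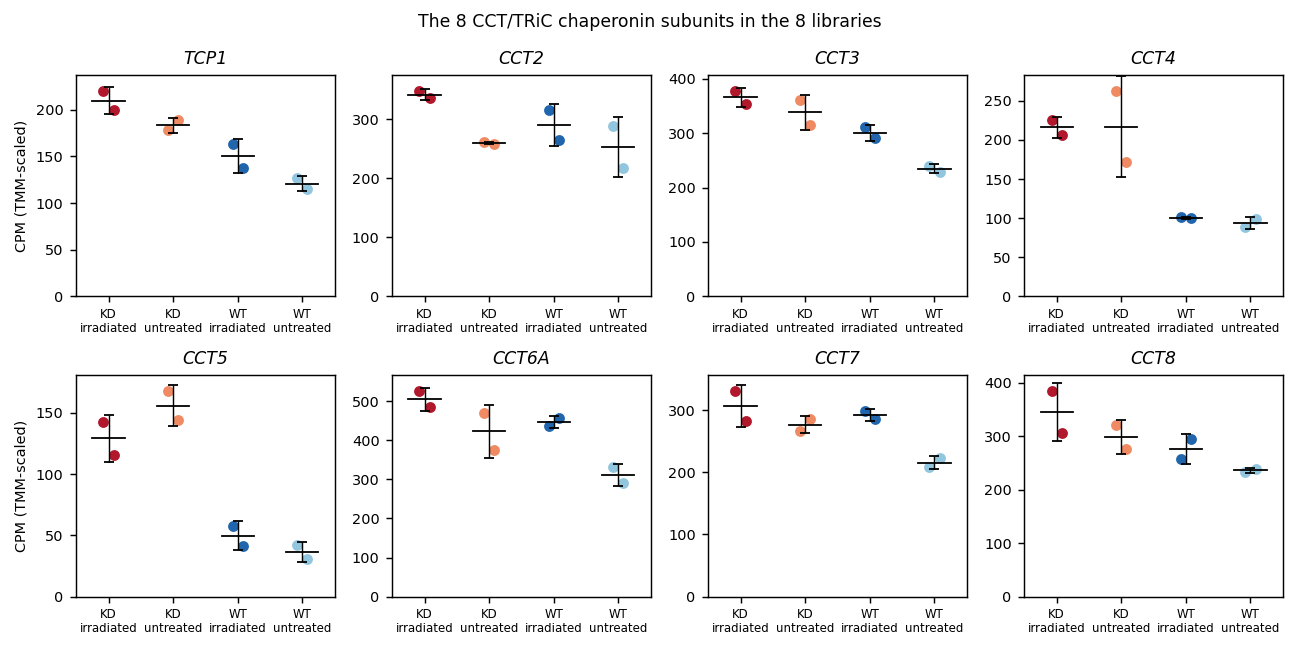
CPM (TMM-scaled, vertical axis) of the 8 ring subunits of the CCT/TRiC chaperonin in the 4 groups; each point is 1 library, and lines with bars show the mean ± SD of 2 libraries. In CCT4 and CCT5 the knockdown libraries lie far above the WT libraries (116 to 168 CPM against 30.7 to 58.0 CPM for CCT5), and in CCT2, CCT6A, CCT7 and CCT8 the ranges overlap.

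The cytosolic HSP90 paralogs differed in opposite directions between untreated knockdown and WT cells. HSP90AA1, the stress-inducible alpha form, had 1207 and 1011 CPM in irradiated knockdown and 874 and 877 CPM in untreated knockdown libraries, against 1481 and 1432 CPM in irradiated WT and 1415 and 1387 CPM in untreated WT libraries. All knockdown libraries were below all WT libraries. It fell in untreated knockdown cells (log2 difference -0.68 ± 0.12, edgeR adjusted p = 0.00194) and had -0.39 ± 0.12 after irradiation (adjusted p = 0.0710), which passed under 4 of 19 alternatives (0.0155 to 0.0358). The untreated call held under every alternative.

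HSP90AB1, the constitutive beta form, had 2307 and 2211 CPM in irradiated knockdown and 1953 and 1967 CPM in untreated knockdown libraries, against 1762 and 1517 CPM in irradiated WT and 1577 and 1442 CPM in untreated WT libraries. Here all knockdown libraries were above all WT libraries. HSP90AB1 rose in knockdown cells by 0.46 ± 0.11 irradiated (edgeR adjusted p = 0.0241) and 0.38 ± 0.11 untreated (0.0412). The irradiated call was lost without irradiated WT replicate 2 or either irradiated knockdown library (0.0674 to 0.205). The untreated call was lost without untreated WT replicate 2 or either untreated knockdown library (0.0980 to 0.157) and, with DESeq2's size factors, at 0.0506. After irradiation in knockdown cells HSP90AA1 had a log2 change of 0.34 ± 0.12 (adjusted p = 0.386), with libraries that did not overlap.

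HSPB1 (HSP27), a small heat shock protein that holds unfolded clients, had 624 and 704 CPM in irradiated knockdown and 528 and 521 CPM in untreated knockdown libraries, against 861 and 789 CPM in irradiated WT and 853 and 816 CPM in untreated WT libraries. Its levels were lower in every knockdown library. It fell in untreated knockdown cells by 0.67 on the log2 scale (-0.67 ± 0.13, edgeR adjusted p = 0.00328), under every alternative, and had -0.31 ± 0.13 after irradiation (adjusted p = 0.182, and 0.0371 on thinned counts). HSPB8, a small heat shock protein that works with BAG3 in selective autophagy, went the other way at a low level. It had 23.8 and 32.2 CPM in irradiated knockdown and 42.1 and 24.8 CPM in untreated knockdown libraries, against 7.47 and 9.54 CPM in irradiated WT and 10.8 and 12.4 CPM in untreated WT libraries, with no overlap. HSPB8 rose by 1.71 ± 0.41 irradiated (edgeR adjusted p = 0.0238) and 1.53 ± 0.40 untreated (0.0245). These calls were lost on thinned counts (0.208 and 0.111), with limma (0.0715 and 0.0816), and without 3 and 2 of the libraries compared: irradiated WT replicates 1 and 2 and irradiated knockdown replicate 2 (0.0637 to 0.167), and untreated WT replicate 1 and untreated knockdown replicate 1 (0.0839 and 0.193). At equal depth HSPB8 had a count in 35.0% to 57.6% of knockdown cells, against 13.95% to 32.6% of WT cells (before thinning 56.8% to 79.1%, against 22.9% to 64.6%), and 1 cell held 49.6% of its counts in untreated WT replicate 1. HSPB11, an intraflagellar transport protein despite its symbol, passed in no comparison.

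Among J-domain proteins, DNAJA1, a type A partner of HSPA8, had 271 and 253 CPM in irradiated knockdown and 249.7 and 234 CPM in untreated knockdown libraries, against 364 and 386 CPM in irradiated WT and 352 and 369.9 CPM in untreated WT libraries. The genotypes did not overlap, and the direction was opposite to that of HSPA8. DNAJA1 fell in untreated knockdown cells (log2 difference -0.58 ± 0.14, edgeR adjusted p = 0.0188) and had -0.52 ± 0.14 after irradiation (0.0516), which passed under 9 of 19 alternatives (0.00410 to 0.0495). The untreated call was lost without untreated WT replicate 2 or either untreated knockdown library (0.0567 to 0.110). DNAJB1, a stress-inducible type B partner, had 149.9 and 136 CPM in irradiated knockdown and 125 and 109.8 CPM in untreated knockdown libraries, against 163 and 148 CPM in irradiated WT and 154 and 173 CPM in untreated WT libraries. Its libraries overlapped between genotypes after irradiation, and its untreated log2 difference of -0.48 ± 0.18 did not pass (edgeR adjusted p = 0.104); it passed under 2 of 19 alternatives (0.0442 and 0.0474). DNAJB6, which holds back aggregation of polyglutamine proteins, had 269.9 and 259 CPM in irradiated knockdown and 265 and 280.4 CPM in untreated knockdown libraries, against 335 and 303 CPM in irradiated WT and 298 and 367 CPM in untreated WT libraries. Every knockdown library was below every WT library, with no call (-0.27 and -0.29, edgeR adjusted p = 0.383 and 0.278).

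DNAJB4, a cytosolic type B protein, had 53.5 and 55.3 CPM in irradiated knockdown and 27.2 and 35.8 CPM in untreated knockdown libraries, against 20.2 and 15.1 CPM in irradiated WT and 20.5 and 16.4 CPM in untreated WT libraries. Irradiated knockdown libraries were the highest and did not overlap with any other group. It rose in irradiated knockdown against irradiated WT cells by 1.63 ± 0.33 on the log2 scale (edgeR adjusted p = 0.00944), a call lost when replicate 2 of irradiated WT (0.0819) or of irradiated knockdown cells (0.0514) was left out. DNAJC2, a ribosome-bound J-domain protein, rose in untreated knockdown cells (1.36 ± 0.34, adjusted p = 0.0204): it had 67.7 and 45.9 CPM there, against 26.5 and 17.8 CPM in untreated WT libraries. DNAJC6 (auxilin), which uncoats clathrin vesicles with HSPA8, fell in untreated knockdown cells (-2.18 ± 0.56, adjusted p = 0.0225), at 2.45 and 6.02 CPM against 16.6 and 21.9 CPM in untreated WT libraries. DNAJC18 fell too (-1.96 ± 0.54, adjusted p = 0.0320), at 4.84 and 5.20 CPM against 16.9 and 22.1 CPM. All 3 calls were lost without untreated WT replicate 2 or untreated knockdown replicate 1 (0.0809 to 0.157). DNAJC18 also lost it without either of the other untreated libraries (0.0503 and 0.0872), and DNAJC6 on thinned counts (0.162), with limma (0.220) and without the deepest cells (0.308). DNAJC2 overlaps PMPCB and PSMC2 on the other strand, and use of strand in counting is not given. PSMC2 was also higher in untreated knockdown cells (0.70 ± 0.16, edgeR adjusted p = 0.00967). The other 21 tested DNAJC proteins had no call in the fit of all 4 groups. Of these, DNAJC5, the cysteine string protein of secretory vesicles, differed between irradiated genotypes by 0.81 ± 0.24 (edgeR adjusted p = 0.0744) and passed under 9 of 19 alternatives (0.0163 to 0.0453).

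HSPA9 (mortalin), HSPD1 (HSP60) and HSPE1 (HSP10) work in the mitochondrial matrix and are in the group by symbol. HSPD1 had 706 and 571 CPM in irradiated knockdown and 489 and 571 CPM in untreated knockdown libraries, against 427 and 443 CPM in irradiated WT and 338 and 303 CPM in untreated WT libraries. All knockdown libraries were above all WT libraries. Averaged over both genotypes, the irradiation change of HSPD1 had no call in the fit of all 4 groups. It passed in edgeR with no filter on low counts (adjusted p = 0.0464) and without cells above 2 times the median (0.0272), and with DESeq2's Wald test (0.0303). HSPD1 rose in knockdown cells by 0.73 ± 0.15 untreated (edgeR adjusted p = 0.00615, under every alternative) and by 0.55 ± 0.15 irradiated (0.0442), the second lost without either irradiated WT library or irradiated knockdown replicate 1 (0.127 to 0.387).

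HSPE1, the co-chaperonin that caps HSPD1, did not follow it. It had 259 and 224 CPM in irradiated knockdown and 248 and 193 CPM in untreated knockdown libraries, against 339.5 and 349 CPM in irradiated WT and 255 and 299.7 CPM in untreated WT libraries, with log2 differences of -0.51 ± 0.17 and -0.33 ± 0.17 and no call (edgeR adjusted p = 0.101 and 0.249); the irradiated one passed under 2 of 19 alternatives (0.0335 and 0.0488). The pair shares a promoter region on opposite strands, and their annotated spans overlap (HSPD1 at chr2:197486581-197516737, HSPE1 at chr2:197499994-197503457 in GENCODE 29), so reads in the overlap cannot be told apart without strand. HSPE1 has 26 named pseudogenes and HSPD1 has 17. HSPA9 had 359 and 374 CPM in irradiated knockdown and 328 and 326 CPM in untreated knockdown libraries, against 246 and 277 CPM in irradiated WT and 223 and 236 CPM in untreated WT libraries, with no overlap. It rose in untreated knockdown cells by 0.51 ± 0.15 (edgeR adjusted p = 0.0367), a call lost without any one library other than the irradiated WT ones (0.0582 to 0.136) and without the deepest cells (0.0842), and had 0.48 ± 0.15 after irradiation (0.0733), which passed under 7 of 19 alternatives (0.0135 to 0.0481). The share of counts from mitochondrially encoded genes, a sign of RNA quality, was 10.2% and 10.6% in irradiated knockdown and 11.1% and 12.0% in untreated knockdown libraries, against 9.76% and 10.3% in irradiated WT and 9.36% and 9.63% in untreated WT libraries. Its part in the genotype differences was not tested.

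**Figure D4:**
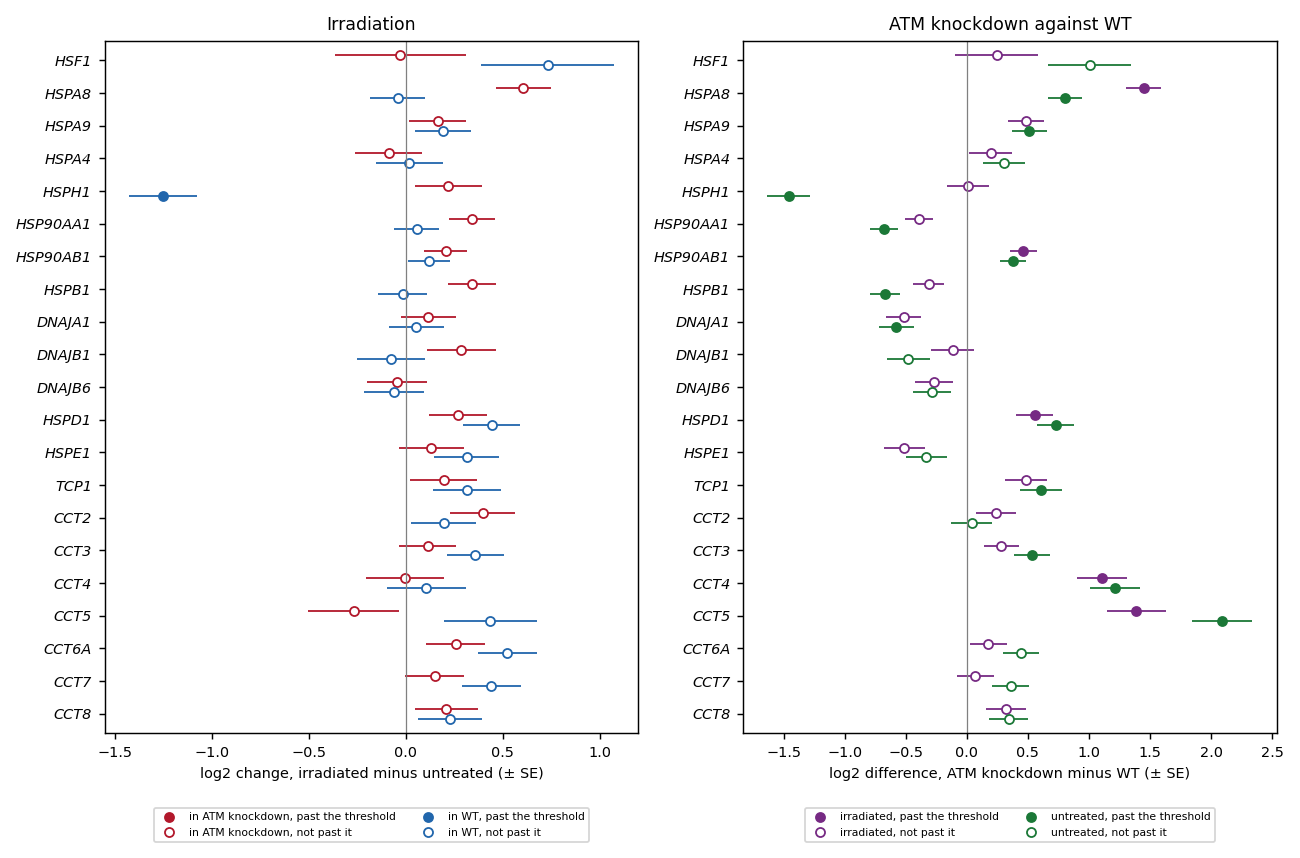
Log2 changes with SE (horizontal axes) of the 21 measured members named in every comparison, after irradiation in knockdown and WT cells (left) and between knockdown and WT cells in both treatments (right); filled points passed the adjusted threshold of 0.05. On the left only HSPH1 in WT cells, at -1.25, is filled; on the right HSPA8, CCT4, CCT5, HSPD1 and HSP90AB1 are filled on the positive side in both treatments.

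HSF1 had 64.7 and 60.2 CPM in irradiated knockdown and 73.9 and 53.4 CPM in untreated knockdown libraries, against 60.1 and 45.4 CPM in irradiated WT and 44.2 and 19.1 CPM in untreated WT libraries. It passed in no comparison in the fit of all 4 groups: the log2 difference was 1.00 ± 0.34 between untreated knockdown and WT cells (edgeR adjusted p = 0.0792), and the change was 0.73 ± 0.34 in irradiated WT cells (0.358). The WT change passed without untreated WT replicate 1 (1.45, adjusted p = 0.0328). The untreated genotype difference passed under 7 of 19 alternatives (adjusted p = 0.00186 to 0.0498) and reached 1.73 without that same library. HSPA4, an HSP110 relative of HSPH1, had log2 differences of 0.19 ± 0.17 and 0.30 ± 0.17 between genotypes and no call.

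Besides HSF1 and HSPA8, irradiation changes without a call in members averaging at least 5 on the log2 CPM scale were in both directions. HSPA13, an HSP70 relative of the endoplasmic reticulum, had 36.5 and 36.3 CPM in irradiated knockdown against 57.7 and 59.2 CPM in untreated knockdown libraries (log2 change -0.68 ± 0.25, edgeR adjusted p = 0.404). DNAJC5 had 99.3 and 127 CPM against 61.3 and 90.2 CPM in the same groups (0.58 ± 0.24, adjusted p = 0.488). HSPA14, a ribosome-associated HSP70, had 68.4 and 75.2 CPM in irradiated WT against 50.9 and 40.7 CPM in untreated WT libraries (0.65 ± 0.25, adjusted p = 0.230). In each of the 3 the groups did not overlap. Over all tested members, libraries did not overlap and were higher after irradiation in 21 in knockdown cells (35.6%, against 20.9% of all genes) and 18 in WT cells (30.5%, against 22%). They were lower in 7 (11.9%, against 18.6%) and 12 (20.3%, against 22.1%).

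Other parts of the protein quality system were read from lists. Calls of listed genes, here and below, are from the fit of all 4 groups. How they held under the alternatives is not given, and several lay close to the threshold. Among 21 co-chaperones of HSP70 and HSP90, BAG1, an HSP70 nucleotide exchange factor, fell in irradiated knockdown against irradiated WT cells (log2 difference -0.86 ± 0.20, edgeR adjusted p = 0.0244), and ST13, the HSP70-interacting protein HIP, fell in untreated knockdown cells (-0.61 ± 0.18, 0.0436). That is 1 of 21 in each (4.76%), against 5.1% and 9.94% of all genes. FKBP5, an HSP90 co-chaperone of steroid receptors, rose after irradiation on average over both genotypes (0.88 ± 0.21, edgeR adjusted p = 0.0497). It was 1 of 21 there (4.76%, against 1.49% of all genes). Of 6 measured prefoldin subunits, which hand actin and tubulin to CCT/TRiC, only PFDN2 passed, higher in knockdown cells in both treatments (0.98 ± 0.16 irradiated and 0.89 ± 0.16 untreated, edgeR adjusted p = 0.00200 and 0.00195). That is 16.7% in each, against 5.1% and 9.94% of all genes. Of 13 endoplasmic reticulum chaperones, HSPA5 (BiP) was higher in knockdown cells in both treatments (0.70 ± 0.16 irradiated and 1.20 ± 0.16 untreated, edgeR adjusted p = 0.0190 and 0.000297). SDF2L1 was higher in untreated knockdown cells (0.86 ± 0.25, edgeR adjusted p = 0.0410). That is 1 of 13 irradiated (7.69%, against 5.1% of all genes) and 2 of 13 untreated (15.4%, against 9.94%).

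Other textbook targets of heat shock factors moved in both directions. Of 12 tested, HMOX1, the haem-degrading oxidative stress gene, was higher in knockdown cells in both treatments, with 58.8 and 62.2 CPM in irradiated knockdown and 69.3 and 52.1 CPM in untreated knockdown libraries, against 12.6 and 4.25 CPM in irradiated WT and 10.8 and 6.87 CPM in untreated WT libraries. Its log2 differences were 2.88 ± 0.45 irradiated and 2.78 ± 0.44 untreated (edgeR adjusted p = 0.00174 and 0.000947). In untreated knockdown cells UBB, a polyubiquitin gene, rose (0.98 ± 0.23, edgeR adjusted p = 0.0141) and ZFAND2A, an arsenite-inducible proteasome-associated gene, fell (-1.63 ± 0.36, 0.00937). Of the 12 targets, 1 thus passed between irradiated genotypes (8.33%, against 5.1% of all genes) and 3 between untreated ones (25%, against 9.94%). Of 34 proteasome subunits, 29 had a positive change in irradiated WT cells, and 18 had one in irradiated knockdown cells. In WT cells 1 passed (2.94%, against 1.65% of all genes), PSMA3 (0.61 ± 0.14, edgeR adjusted p = 0.0474). Between untreated genotypes 6 of the 34 passed (17.6%, against 9.94% of all genes), 4 higher in knockdown cells, among them PSMB7 (0.67 ± 0.13, edgeR adjusted p = 0.00486), and 2 lower, PSMA1 (-0.85 ± 0.17, 0.00490) and PSMA2. Between irradiated genotypes 1 of 34 passed (2.94%, against 5.1%), PSMA1, lower in knockdown cells (-0.80 ± 0.17, 0.0124). Of 10 tested mitochondrial chaperones and proteases, TIMM44 rose and CLPP fell in untreated knockdown cells (0.86 ± 0.25 and -0.73 ± 0.19, edgeR adjusted p = 0.0412 and 0.0205). That is 20%, against 9.94% of all genes.

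G2 and M phase genes also differed between genotypes after irradiation: of 24, 8 fell in irradiated knockdown against irradiated WT cells (33.3%, against 5.1% of all genes), and 1, KIF20A, passed as lower in irradiated against untreated knockdown cells (4.17%, against 0.225%). In that second comparison 23 of the 24 had a negative log2 change, with a median of -0.83. An unadjusted edgeR p under 0.05 was found for 19 of them, against 1104 of 12456 genes. The summed level of the 24 genes was 2867 and 2411 CPM in irradiated knockdown and 4454 and 5131 CPM in untreated knockdown libraries, against 6843 and 3750 CPM in irradiated WT and 7424 and 3513 CPM in untreated WT libraries. The 2 libraries of each WT group were wide apart. Of 23 immediate early genes, 2 fell in irradiated WT cells (8.70%, against 1.65% of all genes) and 3 rose and 3 fell in knockdown against WT cells in each treatment (26.1%, against 5.1% irradiated and 9.94% untreated). The part of these shifts in the chaperone differences was not tested.

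From cell to cell the members varied together only weakly. Over the 34 members with a count in at least 50% of the cells of every library, the median Pearson correlation between 2 members within a library was 0.02 to 0.14, beside 0.01 to 0.06 over pairs of all 3838 genes with the same detection. Pairs of CCT/TRiC subunits had medians of 0.04 to 0.29. The highest pair over the 8 libraries was HSP90AA1 with CCT6A (median 0.43, range -0.03 to 0.55). Cells of a library share its depth and handling, and in counts this sparse such values are a description. The share of a cell's counts taken by all members ran, from the lower 10th to the higher 90th percentile of the 2 libraries, from 1.04% to 1.55% in irradiated knockdown cells, 0.765% to 1.39% in untreated knockdown cells, 0.741% to 1.27% in irradiated WT cells and 0.668% to 1.40% in untreated WT cells.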

How the data were processed

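The deposited tables, 1 per library, hold counts of reads per protein-coding gene and cell. Single cells were picked by mouth pipette and amplified with a modified Smart-seq2 that sequences transcript 3' ends, per the labels' protocols. Reads were trimmed with Trimmomatic 0.36, aligned to hg38 with HISAT2 2.1.0 and counted with HTSeq 0.9.1, per the submitters' processing notes; use of strand and the treatment of multiply mapped reads and of molecular identifiers are not given in the sources used here. Depth is the summed count per library given above.

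Cells with at least 1000 genes and 5000 counts were kept and their counts summed per library. Library sums were tested with edgeR 4.0.16 (TMM scaling, filterByExpr, quasi-likelihood test, all 4 groups in 1 fit, Benjamini-Hochberg adjustment over 12456 genes, threshold 0.05), and alternatives used DESeq2 1.42.0 and limma 3.58.1. CPM are TMM-scaled, except those of ATM and the marker genes, which are per library total. On simulated data of the WT irradiation comparison, 51.0% of genes changed 2-fold and 99.0% of those changed 4-fold were called, with 7 false calls among 12146 genes. The changed genes all averaged at least 5 log2 CPM, and the simulated spread followed the level and not the single gene. Members below that level were not covered. Values per cell come from counts thinned to 69000 (33 cells fell short); 1 count is then worth 14.5 CPM. Gene positions are from GENCODE 29 and promoters from RefSeq (GRCh38.p14).

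The members and lists were chosen with earlier results of these data known. Genes named were drawn from the members past the threshold, the 6 largest changes per comparison among members averaging at least 5 log2 CPM, a set of 23 classical chaperones, and up to 3 called genes per list and direction. Not every gene without a call in these sets is given for every comparison. DNAJB14 and DNAJC21, which had no call, are not described.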

Additional observations from a re-analysis of the deposited data

Results flagged for a closer look

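HSPH1 was singled out because its irradiation effect differed between the genotypes by a test of the difference itself. The log2 irradiation change was 0.22 ± 0.17 in knockdown cells and -1.25 ± 0.18 in WT cells (SE), a difference of 1.47 ± 0.25 (edgeR quasi-likelihood test, adjusted p = 0.0336). Over 18 alternatives the difference ranged from 1.24 to 1.74, with adjusted p from 2.42e-06 to 0.0340. Both irradiated knockdown libraries, both untreated knockdown libraries and both irradiated WT libraries were at or below 198 CPM, against 457 and 455 CPM in untreated WT libraries.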

How the results depend on the processing

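In irradiated against untreated WT cells, 2 members were called instead of 1 with no filter on low counts, DESeq2's Wald test, limma on mean CPM per cell or thinned counts, and 1 to 2 when single libraries were left out. In knockdown cells 1 was called instead of 0 under the same 4 settings, without cells above 2 times the median or with only the compared groups, and 0 to 2 without single libraries. For the mean of both genotypes the count of 1 became 3 with no filter, the Wald test or limma (there CCT2, CCT6A and HSPA8, without HSPH1), 0 on thinned counts and 2 without cells above 2 times the median, and 0 to 2 without single libraries. The count of 1 for the difference between irradiation effects was 1 to 3 without single libraries, with 3 without untreated WT replicate 2. Between untreated genotypes the count of 16 became 7 with only the compared groups, 20 with the Wald test and 8 to 17 without single libraries; all genes called ran from 6.1% to 22.7% over the settings that kept every library. Between irradiated genotypes the count of 7 became 12 with no filter, 15 with the Wald test, 14 on thinned counts, 12 with only the compared groups and 3 to 13 without single libraries. Where a library was left out, the remaining one is assumed to vary like the other groups. The log2 irradiation change of HSPH1 in knockdown cells ranged from -0.0205 (without untreated knockdown replicate 1) to 0.477 without single libraries, and the mean change of HSPB1 turned to -0.0191 without cells above 2 times the median. The cause was not tested.

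Of the single-gene values under alternatives, 2557 kept their side of the threshold, 74 gained and 70 lost a call, and 2 reversed direction. Most of these values came from results without a call in the fit of all 4 groups, which had none to lose. The 2557 is therefore not a measure of how firm the calls are, and all 70 losses fell on calls of that fit. A change of sign was not counted where the main value lay within its SE of 0 and neither fit called it. Under the other scalings the median log2 value of all genes stayed within 0.0646 of 0 in each comparison. No paired analysis was possible because the labels give no replicate numbers that tie libraries of different groups. With 2 libraries a group, 51.0% of simulated 2-fold changes in genes averaging at least 5 log2 CPM were called, so smaller differences can be missed at this size. Changes in genes below that level were not simulated.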
